A study of Mus musculus with 10 samples.

Results

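The genes described here are the splicing factors and heterogeneous nuclear ribonucleoproteins of microglia, the resident macrophages of the brain. They were chosen by symbol alone, as every gene of the table whose symbol starts with Srsf and a digit, with Hnrnp or with Snrp, which gave 44 of 19782 genes. The Srsf family had 11 members, the Hnrnp family 21 and the Snrp family 12. Of the 44 members, 42 passed the filter on low counts and were tested among 12505 genes. The members that did not pass were Srsf12, with 12 counts in repopulated library 3, 3 in wild-type library 3, 2 in wild-type library 4 and none elsewhere, and the pseudogene Hnrnpa1l2-ps2, with 1 count in wild-type library 3.

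Pre-mRNA splicing removes introns and joins exons in the nucleus. The Snrp genes encode proteins of the small nuclear ribonucleoproteins, the particles that recognise splice sites and form the spliceosome, and most of them belong to the ring of Sm proteins around the small nuclear RNAs. The Srsf genes encode serine and arginine rich proteins, which bind exons and mostly favour their inclusion. The Hnrnp genes encode abundant nuclear proteins that coat nascent transcripts, often oppose exon inclusion and also act in mRNA export, stability and translation. Both regulator families control their own mRNA, in many cases by splicing in an exon that leads the transcript to nonsense-mediated decay.

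The cells were microglia sorted from the hippocampus as CD45low CD11b+ cells. One group, called repopulated here, came from 5xFAD mice that received PLX3397, an inhibitor of the CSF1 receptor that depletes microglia, at 290 mg/kg of chow for 1 month from 4 months of age, and then normal diet for 1 month, during which microglia returned (3 libraries). A second group, called control, came from 5xFAD mice on normal diet (3 libraries), and the third from wild-type mice on normal diet (4 libraries). The 5xFAD line carries human transgenes with familial Alzheimer disease mutations, expressed from a neuronal promoter, and both of the first groups carry them. The labels name no age for the control and wild-type groups, and repopulated wild-type microglia were not analysed here. The labels do not say that the libraries of a group came from separate animals. The p-values therefore measure only the spread between these libraries, which may be partly or wholly technical. In the control and wild-type groups, some libraries nearly lacked Y-linked transcripts and others held them, as given below. The libraries of those groups thus cannot all come from the same animals, and their spread is not technical alone.

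**Figure D1:**
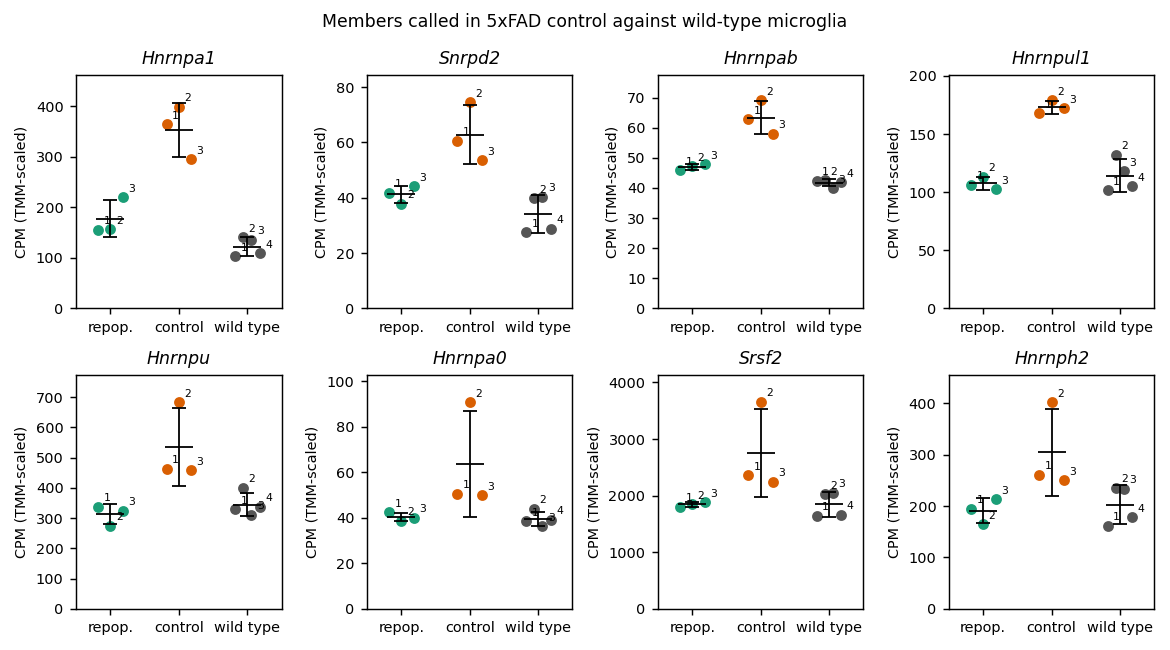
Level of the 8 members that were called in control against wild-type microglia, in TMM-scaled CPM on a linear axis, by library (points, with replicate numbers), with the group mean and SD (bars; 3 repopulated, 3 control and 4 wild-type libraries). Control libraries lie above all wild-type libraries in each panel, and control library 2 is the highest library for each of the 8 genes.

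Promoters are shown first for 4 members, Hnrnpa1, Hnrnpul1, Hnrnpab and Snrpd2, because these were the members called in control against wild-type microglia under all 22 alternative settings tried. Each line holds the 300 bases from 250 before to 50 after an annotated transcript start, 5′ to 3′ on the strand of the gene, from RefSeq on GRCm38.p6. Capitals mark matches to 6 short motifs searched on both strands, which are the GC box (GGGCGG), the ETS core (CCGGAAG), the E-box (CACGTG), the CCAAT box (CCAAT), the NRF1 core (GCGC, any 2 bases, GCGC) and the TATA box (TATAAA). In these 4 promoters no match overlapped a match to another motif.
Hnrnpa1, chr15:103240147-103240446, plus strand: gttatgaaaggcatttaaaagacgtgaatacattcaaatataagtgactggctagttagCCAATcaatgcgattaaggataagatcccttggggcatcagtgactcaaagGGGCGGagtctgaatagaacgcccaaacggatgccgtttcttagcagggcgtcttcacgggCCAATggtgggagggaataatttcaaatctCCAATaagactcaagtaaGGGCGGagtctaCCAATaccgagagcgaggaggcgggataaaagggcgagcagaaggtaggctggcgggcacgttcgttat
Hnrnpul1, chr7:25754710-25755009, minus strand: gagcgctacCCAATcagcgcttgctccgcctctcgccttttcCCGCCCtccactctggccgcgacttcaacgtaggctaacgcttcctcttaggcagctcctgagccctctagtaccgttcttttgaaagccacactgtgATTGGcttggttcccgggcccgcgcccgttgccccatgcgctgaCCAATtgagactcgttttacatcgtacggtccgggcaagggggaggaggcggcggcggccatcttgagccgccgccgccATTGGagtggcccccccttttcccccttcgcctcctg
Hnrnpab, chr11:51606832-51607131, minus strand: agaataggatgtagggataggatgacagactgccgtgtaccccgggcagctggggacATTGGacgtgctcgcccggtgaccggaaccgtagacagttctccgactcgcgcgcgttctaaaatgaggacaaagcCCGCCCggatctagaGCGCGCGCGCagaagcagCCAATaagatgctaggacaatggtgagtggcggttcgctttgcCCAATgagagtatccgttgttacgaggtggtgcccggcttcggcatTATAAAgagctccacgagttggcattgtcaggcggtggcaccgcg
Snrpd2, chr7:19149588-19149887, plus strand: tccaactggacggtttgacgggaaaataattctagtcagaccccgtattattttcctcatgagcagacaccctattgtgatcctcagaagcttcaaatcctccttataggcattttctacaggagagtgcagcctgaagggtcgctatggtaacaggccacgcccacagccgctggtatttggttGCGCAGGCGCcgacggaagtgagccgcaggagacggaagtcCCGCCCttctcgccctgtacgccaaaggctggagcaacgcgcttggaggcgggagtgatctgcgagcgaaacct

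The CCAAT box matched 4 times in the Hnrnpa1 promoter, 4 times in that of Hnrnpul1, 3 times in that of Hnrnpab and 0 times in that of Snrpd2. Across the families, 38 tested members had 54 promoters of full length in the table, which holds 32851 in all, and promoters of 1 gene can overlap. CCAAT was found in 63.0% of 27 Hnrnp promoters, 30.8% of 13 Srsf promoters and 28.6% of 14 Snrp promoters, against 37.4% of all promoters. The NRF1 core was found in 53.8% of Srsf, 22.2% of Hnrnp and 14.3% of Snrp promoters, against 6.23% of all. The GC box was found in 92.3% of Srsf, 77.8% of Hnrnp and 35.7% of Snrp promoters, against 35.7% of all. The ETS core was found in 46.2%, 14.8% and 28.6% of Srsf, Hnrnp and Snrp promoters, against 8.86% of all. The E-box was found in 0% of Srsf, 18.5% of Hnrnp and 14.3% of Snrp promoters, against 7.15% of all, and the TATA box in 15.4%, 7.41% and 14.3% of the same sets, against 13.6% of all. Matches to short motifs depend on base composition, and the median GC content was 61% in the members' promoters and 52.7% in all. The matches describe letters in these windows and were not tied to any binding measurement.

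Libraries held 18501126 to 23286808 rounded estimated counts. Levels of 1 gene across libraries are given as CPM, counts scaled to a common library size with TMM factors, and levels compared between genes as the authors' TPM, which are scaled for gene length. Values are listed in replicate order. The 12 microglia markers summed to 43960 to 59740 CPM in repopulated, 55270 to 59660 in control and 51730 to 63160 in wild-type libraries. In wild-type library 3 the 4 erythrocyte markers summed to 281 CPM, the 6 astrocyte markers to 385 CPM and the 6 oligodendrocyte markers to 138 CPM. The other wild-type libraries had 0 to 20.4, 209.7 to 301 and 62.9 to 88.9 CPM of these 3 lists, repopulated libraries 0.135 to 1.86, 217 to 226 and 77.2 to 82.6 CPM, and control libraries 0.148 to 5.14, 215 to 235 and 56.7 to 68.5 CPM. The 3 pericyte and 3 B cell markers summed to at most 0.360 and 0.354 CPM in any library. Wild-type library 3 correlated least with its own group (mean 0.920, other wild-type libraries 0.944 to 0.956). Its 10 neuron markers, none of which was at 0 in all libraries, summed to 72.4 CPM, against 13.6 to 16.4 in the other wild-type libraries, 9.22 to 14.4 in repopulated and 6.32 to 10.03 in control libraries. In control library 2 the 5 neutrophil markers summed to 287 CPM, against 15.5 and 21.1 in the other control libraries, 63.5 to 148 in repopulated and 30.3 to 230 in wild-type libraries. Y-linked transcripts summed to 5.12 to 16 CPM in control libraries 1 and 3 and wild-type library 2, and to 342 to 484 CPM in the other 7 libraries. In sorted bulk samples, fewer cells of a state and less RNA per cell cannot be told apart.

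By TPM, Srsf2 was the most abundant member of all, with a mean of 1427 TPM over the 10 libraries. It encodes the exon-binding protein known as a marker of nuclear speckles and made up 49.8 to 52.3% of the Srsf family's summed TPM in repopulated, 56.5 to 64.2% in control and 46.0 to 52.8% in wild-type libraries. Srsf5 (383 TPM) and Srsf7 (236 TPM), an mRNA export adaptor, followed, and Srsf4 (28.4), Srsf1 (33.2) and Srsf3 (105) were the least abundant tested members of that family. Among Hnrnp members, Hnrnpk (422 TPM), which binds runs of C, Hnrnph1 (379), which binds runs of G, and Hnrnpa2b1 (294) were highest, and Hnrnpul2 (9.21), Hnrnpd (13.3) and Hnrnpll (13.3) lowest. Among Snrp members the Sm proteins Snrpd2 (267 TPM), Snrpb (177) and Snrpe (143) were highest, and Snrpf (36.4), Snrpd3 (9.05) and Snrpn (2.56) lowest. Reads of near-identical copies may be divided between them in estimated counts. Many members, Hnrnpa1 among them, have processed pseudogenes, so the levels of single members are uncertain.

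The first question was how the 3 families in microglia of plaque-forming mice differed from wild type. In control against wild-type microglia, 8 of the 42 tested members rose and 0 fell at an adjusted p of 0.05 (edgeR quasi-likelihood test, Benjamini-Hochberg adjustment over all genes); DESeq2 gave 11 and 0. These 8 are 19% of the members, and 18.1% of all tested genes were called in this comparison (10.1% higher, 8.04% lower). By DESeq2 that share of all genes was 21.7%. The 8 were 6 of 20 Hnrnp members (30%), 1 of 10 Srsf members (10%) and 1 of 12 Snrp members (8.33%). The median log2 fold change was 0.33 for Hnrnp, 0.11 for Srsf and 0.09 for Snrp members, against -0.06 for all tested genes. The Srsf and Snrp medians were negative without TMM factors (-0.10 and -0.11) and after correction for GC content and length (-0.09 and -0.12), while the Hnrnp median stayed positive (0.11 and 0.30). The median of all genes was then -0.27 without TMM factors and -0.10 after the correction. Control and wild-type libraries did not overlap for 21 members, 17 of them higher in control, and for 26.7% of all genes (14.1% higher, 12.6% lower). The unadjusted p was under 0.05 for 19 members (16 higher, 3 lower), or 45.2%, against 31.8% of all genes. Control library 2 was the highest of the 10 libraries for 15 of 20 Hnrnp, 7 of 10 Srsf and 3 of 12 Snrp members. It was also the control library with the most neutrophil marker transcripts and the only one with Y-linked transcripts. Its border macrophage markers summed to 115 CPM (85.5 and 62.8 in control libraries 1 and 3, 56.0 to 106 in wild type). Its monocyte markers summed to 24.7 CPM (15.1 and 13.1 in control libraries 1 and 3, 14.2 to 31.5 in wild type). The part of these differences in the levels of control library 2 was not tested. Without control library 2, 4 members rose (Hnrnpa1, Hnrnpab, Hnrnpul1 and Snrpd2), and 11.3% of all genes were called. The medians were then 0.23 for Hnrnp, -0.04 for Srsf and 0.14 for Snrp, against -0.07 for all genes. With a term for Y-linked transcript status 9 members rose, and 12.8% of all genes were called.

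**Figure D2:**
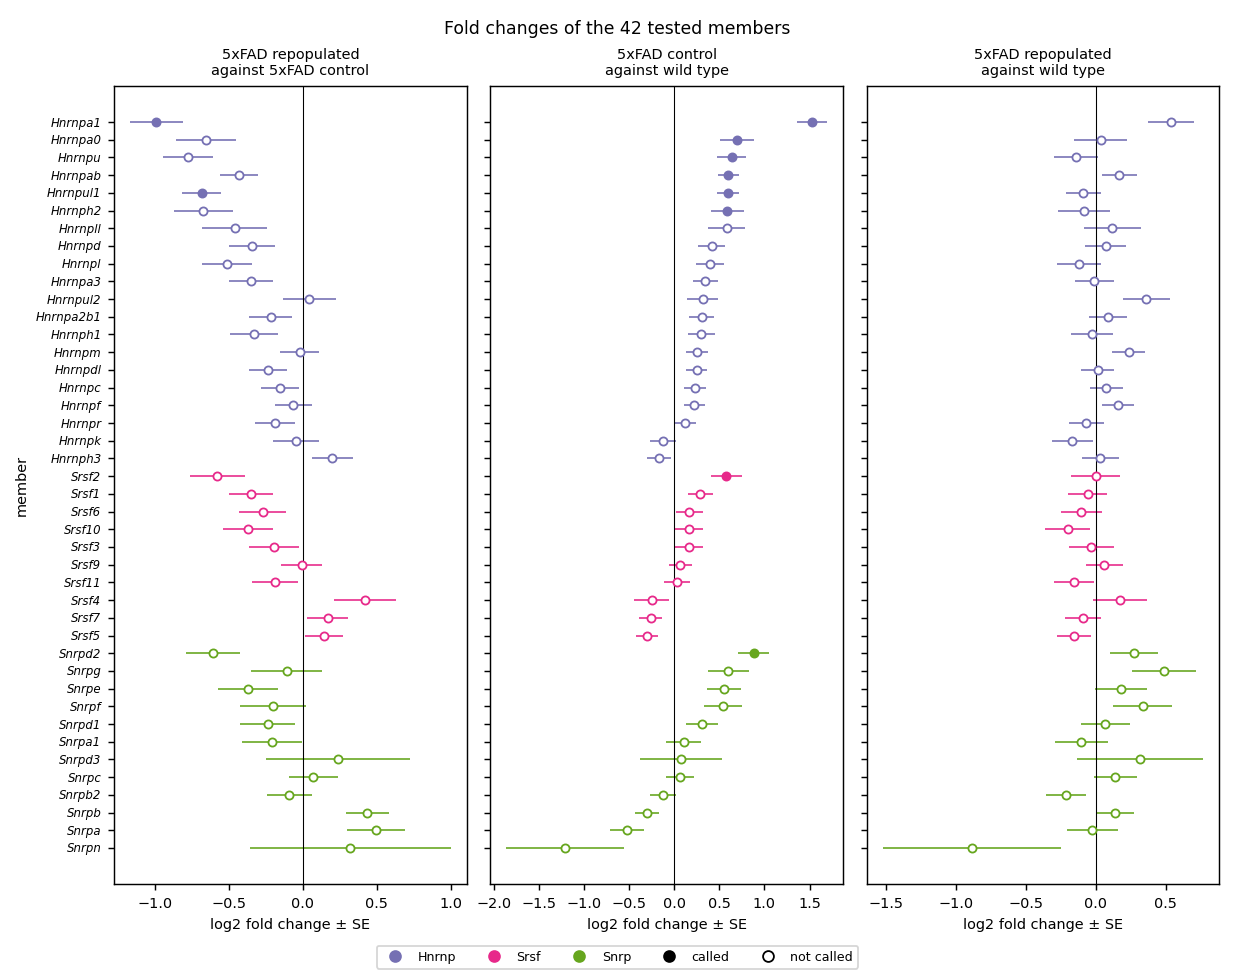
Log2 fold change ± SE of the 42 tested members from edgeR, with filled points called at an adjusted p of 0.05, for repopulated against control (left), control against wild-type (middle) and repopulated against wild-type microglia (right); the log2 axes differ in range. In the middle panel 18 of 20 Hnrnp members lie above 0, against 5710 of all 12505 tested genes in that comparison. In the left panel 18 of 20 lie below 0, against 6269 of 12505. These panels share the control libraries, and control library 2 was the highest library for 15 of the 20 Hnrnp members.

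Hnrnpa1 (Entrez gene 15382, chr15:103239943-103246698, GRCm38) changed most of the members called. It encodes an abundant shuttling protein that represses exon inclusion. Its level was 156, 156 and 220.2 CPM in repopulated, 364, 398 and 295 CPM in control and 104, 141, 136 and 109 CPM in wild-type libraries. No groups overlapped, the control libraries were highest, and the repopulated libraries lay between control and wild type. Control against wild type gave a log2 fold change of 1.53 ± 0.16 (2.89-fold, edgeR adjusted p = 1.75e-05). Repopulated against control gave -0.99 ± 0.18 (adjusted p = 0.0249, edgeR), and repopulated against wild type 0.54 ± 0.16 (adjusted p = 0.0937, edgeR), which was not called. DESeq2 called the last of these.

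Hnrnpab (Entrez gene 15384), a protein of the same subfamily that also binds mRNA in the cytoplasm, had 45.8, 47.1 and 47.8 CPM in repopulated, 62.9, 69.1 and 58 CPM in control and 42.4, 42.5, 39.99 and 42 CPM in wild-type libraries. The 3 groups did not overlap, with control highest and repopulated in the middle. It rose in control against wild type (log2 0.60 ± 0.12, edgeR adjusted p = 0.00333), and in repopulated against control its log2 fold change was -0.43 ± 0.13 (adjusted p = 0.120, edgeR). Hnrnpa0 (Entrez gene 77134), an intronless member of the subfamily that binds mRNAs rich in A and U, had 42.4, 38.7 and 40.04 CPM in repopulated, 50.6, 90.8 and 49.9 CPM in control and 38.4, 44, 36.3 and 39.1 CPM in wild-type libraries. Control library 2 stood far above the other control libraries, which were still above every wild-type library. Hnrnpa0 rose in control against wild type (log2 0.69 ± 0.19, edgeR adjusted p = 0.0197), but not without control library 2 (0.35, adjusted p = 0.127).

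Hnrnpul1 (Entrez gene 232989), an RNA-binding relative of Hnrnpu with roles in mRNA transport and DNA repair, had 107, 113 and 103 CPM in repopulated, 168, 179 and 172 CPM in control and 102, 132, 118 and 105 CPM in wild-type libraries. The control libraries were close together and above all others, and repopulated and wild-type libraries overlapped. Its log2 fold change was 0.60 ± 0.12 in control against wild type (edgeR adjusted p = 0.00368) and -0.69 ± 0.13 in repopulated against control (adjusted p = 0.0351). Hnrnpu (Entrez gene 51810), the nuclear scaffold protein that binds chromatin and RNA, had 337, 274 and 324 CPM in repopulated, 464, 683 and 459 CPM in control and 329, 400.0, 312 and 337 CPM in wild-type libraries. Control library 2 was the highest, and the control group overlapped neither other group. Hnrnpu rose in control against wild type (log2 0.64 ± 0.16, edgeR adjusted p = 0.0120), but not without control library 2 (0.42, adjusted p = 0.0601). It missed the threshold in repopulated against control (log2 -0.78 ± 0.17, edgeR adjusted p = 0.0517).

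Hnrnph2 (Entrez gene 56258, on chromosome X), which binds runs of G, had 195, 165 and 213 CPM in repopulated, 261, 402 and 251 CPM in control and 162, 236, 234 and 178 CPM in wild-type libraries. Wild-type libraries 2 and 3 came close to control libraries 1 and 3, and control library 2 was far higher. Hnrnph2 rose in control against wild type (log2 0.59 ± 0.18, edgeR adjusted p = 0.0373), a call that 12 of 22 alternatives kept and that was lost without control library 2 (0.34, adjusted p = 0.222) and with a term for Y-linked transcript status (0.63, adjusted p = 0.0515). Its close autosomal relative Hnrnph1 had 425, 410.2 and 406 CPM in repopulated, 493, 622 and 445 CPM in control and 482, 442, 332 and 432 CPM in wild-type libraries, with control and wild type overlapping, and was not called (log2 0.30 ± 0.15, edgeR adjusted p = 0.183).

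The other 14 tested Hnrnp members were not called in control against wild type, with log2 fold changes of -0.17 to 0.58, and 12 of them were positive. Hnrnpll, a regulator of CD45 splicing in lymphocytes, had 24.2, 22.8 and 19.98 CPM in repopulated, 27, 41.2 and 24.1 CPM in control and 16.5, 20.6, 26.1 and 19.1 CPM in wild-type libraries. Control library 2 was the highest of the 10, wild-type library 3 lay within the control range, and the log2 fold change was 0.58 ± 0.20 (edgeR adjusted p = 0.0626). Hnrnpd, which binds AU-rich elements and marks mRNAs for decay, had a log2 fold change of 0.42 ± 0.15 (adjusted p = 0.0639, edgeR). Of the most abundant members, Hnrnpa2b1 had 526, 519 and 473 CPM in repopulated, 535, 717 and 512 CPM in control and 496, 453, 472 and 485 CPM in wild-type libraries. The lowest control library was just above the highest wild-type library, and the difference was not called (log2 0.30 ± 0.14, edgeR adjusted p = 0.137). Hnrnpk had 581, 584 and 795 CPM in repopulated, 679, 617 and 727 CPM in control and 656, 797, 777 and 705 CPM in wild-type libraries, and all 3 groups overlapped. Hnrnpul2, the least abundant by TPM, had a log2 fold change of 0.32 ± 0.17 (adjusted p = 0.219, edgeR).

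Several uncalled Hnrnp members differed little but without overlap. Hnrnpc, which binds runs of U, had 171, 161 and 173 CPM in repopulated, 183, 188 and 191 CPM in control and 135, 163, 166 and 176 CPM in wild-type libraries (control against wild type log2 0.23 ± 0.12, adjusted p = 0.199, edgeR). Hnrnpf, another protein that binds runs of G, had 396, 349.9 and 403 CPM in repopulated, 412, 404 and 385 CPM in control and 319, 345, 363 and 343 CPM in wild-type libraries (log2 0.22 ± 0.11, adjusted p = 0.194, edgeR). Control libraries were above all wild-type libraries in both genes, and repopulated libraries overlapped wild type in both. Hnrnpdl, a relative of Hnrnpd, had 237, 232 and 215 CPM in repopulated, 259, 286 and 259 CPM in control and 213, 254, 231 and 205 CPM in wild-type libraries (log2 0.25 ± 0.12, adjusted p = 0.163, edgeR). Hnrnpm had 156, 143 and 133 CPM in repopulated, 143, 155 and 141 CPM in control and 130.5, 125, 106 and 128 CPM in wild-type libraries (log2 0.26 ± 0.12, adjusted p = 0.159, edgeR). Both were higher in every control library than in every wild-type library, and for Hnrnpm every repopulated library was above wild type as well. Hnrnph3 was lower in every control library than in every wild-type library, with 66.8, 59.8 and 51.2 CPM in repopulated, 50.3, 54.8 and 49.8 CPM in control and 61.6, 58.5, 55.1 and 56.7 CPM in wild-type libraries (log2 -0.17 ± 0.13, adjusted p = 0.404, edgeR). Hnrnpa3 and Hnrnpr overlapped between control and wild type (log2 0.34 ± 0.14 and 0.12 ± 0.13, not called by edgeR).

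**Figure D3:**
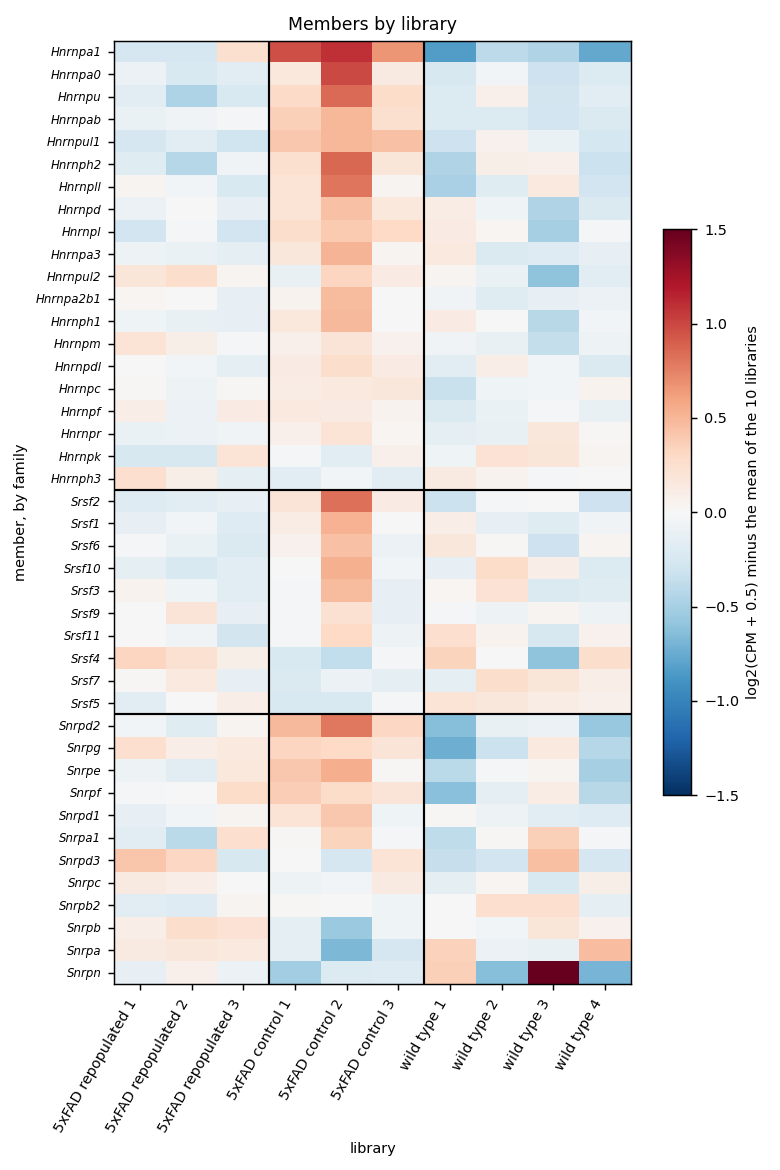
Log2(CPM + 0.5) of each tested member minus its mean over the 10 libraries (colour, cut at ±1.5), for 20 Hnrnp (top), 10 Srsf (middle) and 12 Snrp members (bottom), with libraries of the repopulated, control and wild-type groups from left to right. Control library 2 is the highest library in 15 of 20 Hnrnp rows and 7 of 10 Srsf rows, and wild-type library 3 stands out in the Snrpn row.

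In the Srsf family, Srsf2 (Entrez gene 20382, chr11:116849897-116853675, GRCm38) was the 1 member called. It had 1800.3, 1846 and 1886 CPM in repopulated, 2359, 3657 and 2244 CPM in control and 1641, 2026, 2054 and 1663 CPM in wild-type libraries. Control libraries 1 and 3 lay above the highest wild-type library, and control library 2 lay far above both. Srsf2 rose in control against wild type (log2 0.58 ± 0.17, edgeR adjusted p = 0.0319). Without control library 2 the log2 fold change was 0.32 (adjusted p = 0.149), and 13 of 22 alternatives kept the call. Repopulated against control gave -0.58 ± 0.19 (adjusted p = 0.137, edgeR), with repopulated libraries below all control libraries. Srsf2 overlaps the gene Mfsd11 over 1465 bases, and as the strand setting of the counting is not given in the sources used here, reads of the overlap cannot be told apart. The same limit holds for the called members Hnrnpab, which overlaps Phykpl over 3165 bases, and Hnrnpu, which overlaps Cox20 over 1586 bases. Several uncalled members also overlap other genes.

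The other 9 tested Srsf members were not called in control against wild type, and 6 of them had positive and 3 negative log2 fold changes. Srsf5, one of the 3 negative members, had 278, 314 and 334 CPM in repopulated, 265, 267 and 306 CPM in control and 359.6, 351, 336 and 329 CPM in wild-type libraries. All control libraries were below all wild-type libraries, and the test missed the threshold (log2 -0.30 ± 0.12, edgeR adjusted p = 0.0976). Srsf7 had 345, 379 and 312 CPM in repopulated, 293, 321 and 309 CPM in control and 310.0, 411, 387 and 365 CPM in wild-type libraries. Control and wild type overlapped through wild-type library 1, and the log2 fold change was -0.26 ± 0.13 (adjusted p = 0.184, edgeR). Srsf4 had a log2 fold change of -0.25 ± 0.20 in control against wild type and 0.42 ± 0.21 in repopulated against control, neither called by edgeR (adjusted p = 0.411 and 0.295). Srsf1, the classic activator of exon inclusion, had 100.3, 106 and 95.3 CPM in repopulated, 118, 156 and 109 CPM in control and 117, 100.1, 96.3 and 105 CPM in wild-type libraries. Control library 2 was the highest, the others overlapped in part, and the log2 fold change was 0.29 ± 0.14 (adjusted p = 0.163, edgeR). Srsf3, which promotes export and processing of many mRNAs, had 0.16 ± 0.16 (adjusted p = 0.515, edgeR).

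Srsf10, a regulator that represses splicing when dephosphorylated, had 188, 178 and 186 CPM in repopulated, 209.9, 302 and 202 CPM in control and 191, 252, 224 and 181 CPM in wild-type libraries. Repopulated libraries were below all control libraries, and wild-type libraries spanned both groups. Its log2 fold change was -0.37 ± 0.17 in repopulated against control (adjusted p = 0.259, edgeR) and 0.17 ± 0.16 in control against wild type (adjusted p = 0.497, edgeR). Srsf6, Srsf9 and Srsf11 overlapped between all groups, with log2 fold changes of 0.03 to 0.17 in control against wild type and -0.27 to -0.01 in repopulated against control.

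In the Snrp family, Snrpd2 (Entrez gene 107686, chr7:19149445-19152734, GRCm38), an Sm protein, was the 1 member called. It had 41.8, 37.8 and 44.1 CPM in repopulated, 60.5, 74.5 and 53.5 CPM in control and 27.5, 39.8, 40.3 and 28.8 CPM in wild-type libraries. Control libraries were above all others, and repopulated and wild-type libraries overlapped. Snrpd2 rose in control against wild type (log2 0.88 ± 0.17, edgeR adjusted p = 0.00251), and in repopulated against control its log2 fold change was -0.61 ± 0.18 (adjusted p = 0.121, edgeR). The small Sm proteins Snrpg (log2 0.60 ± 0.23, adjusted p = 0.0819), Snrpe (0.55 ± 0.19, adjusted p = 0.0551) and Snrpf (0.54 ± 0.21, adjusted p = 0.0882) had positive values that edgeR did not call.

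Snrpg had 12.1, 10.8 and 11.2 CPM in repopulated, 12.8, 12.5 and 11.6 CPM in control and 5.88, 7.98, 11.2 and 7.37 CPM in wild-type libraries. Wild-type library 3 lay near the control range and the other wild-type libraries below it, a pattern also seen in Snrpf, with 12.9, 13.1 and 16 CPM in repopulated, 17.1, 16.1 and 15.1 CPM in control and 8.34, 11.9, 14.3 and 9.75 CPM in wild-type libraries. Without wild-type library 3, Snrpe, Snrpf, Snrpg and Hnrnpll joined the members called higher and Snrpa was called lower, so that 12 rose and 1 fell. That fit called 23.6% of all genes in control against wild type. Snrpb, the Sm protein that shares its place with Snrpn, had 104, 116 and 113 CPM in repopulated, 87.8, 65.8 and 92.7 CPM in control and 97.8, 94.4, 111 and 102 CPM in wild-type libraries. Every control library was below every wild-type and repopulated library, with a log2 fold change of -0.30 ± 0.14 in control against wild type (adjusted p = 0.145, edgeR) and 0.43 ± 0.15 in repopulated against control (adjusted p = 0.144). Snrpd1, another Sm protein, had 14.7, 15.6 and 16.5 CPM in repopulated, 18.5, 21.4 and 15.3 CPM in control and 16.2, 15.1, 14.1 and 14 CPM in wild-type libraries, and all 3 groups overlapped (control against wild type log2 0.31 ± 0.17, adjusted p = 0.244, edgeR). Snrpd3, the Sm protein that pairs with Snrpb, had under 3 CPM in every library and a log2 fold change of 0.08 ± 0.46 (adjusted p = 0.929, edgeR).

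Snrpa, a protein of the U1 particle, had 30.4, 31.2 and 30.8 CPM in repopulated, 25, 17.2 and 23.3 CPM in control and 35.3, 26, 25.7 and 38.4 CPM in wild-type libraries. Control libraries were below all others, and neither comparison with control was called (log2 -0.52 ± 0.19 against wild type, adjusted p = 0.0649; repopulated against control 0.50 ± 0.20, adjusted p = 0.197; edgeR). Another U1 protein, Snrpc, and the U2 proteins Snrpa1 and Snrpb2 had log2 fold changes of -0.12 to 0.11 in control against wild type and were not called. Snrpn, the Sm protein of neurons, had 2.11, 2.5 and 2.17 CPM in repopulated, 1.48, 1.97 and 1.98 CPM in control and 3.14, 1.33, 11 and 1.26 CPM in wild-type libraries. Wild-type library 3 was far above the other 9 libraries, which held 1.26 to 3.14 CPM, and it also held the most neuron marker transcripts; their part in the Snrpn level was not tested. The Snrpn locus also overlaps Snurf and Snhg14, whose reads cannot be told apart here.

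The next question was how the same genes differed between repopulated and control microglia of 5xFAD mice. Y-linked transcripts summed to 342 to 356 CPM in the repopulated libraries, but to 7.76 and 5.12 CPM in control libraries 1 and 3. Only control library 2 (484 CPM) was like the repopulated libraries in this. Depletion and repopulation, Y-linked status and any difference in age therefore cannot be fully told apart in this comparison. In repopulated against control microglia, 0 of 42 tested members rose and 2 fell, Hnrnpa1 and Hnrnpul1 (edgeR, adjusted p of 0.05). They are 4.76% of the members, against 0.568% of all tested genes called and 0.216% called lower. The median log2 fold change was -0.34 for Hnrnp, -0.19 for Srsf and -0.10 for Snrp members, against -0.00 for all tested genes. Without control library 2 the medians were -0.19 for Hnrnp, -0.03 for Srsf and -0.09 for Snrp. The Snrp median was positive without TMM factors (0.04, when that of all genes was 0.14) and with the GC content and length correction (0.17). The unadjusted p was under 0.05 for 15 members (2 higher, 13 lower), or 35.7%, against 18.5% of all genes. Repopulated and control libraries did not overlap for 21 members, of which 17 were lower in repopulated, against 30.7% of all genes (15.7% lower). This comparison and the one above share the control libraries, so a control library that stands apart moves both. DESeq2 gave 9 members lower (5.58% of all genes were called by DESeq2). Leaving out control library 2, control library 1, repopulated library 1 or repopulated library 2 gave 0, as did a term for Y-linked transcript status. Leaving out repopulated library 3 gave Hnrnpa1 alone. In the order given, these fits called 4, 2, 4, 0, 1 and 42 genes among all those tested.

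Hnrnpl, which binds CA repeats, was named after its values were seen. It had 36.3, 43.9 and 36.4 CPM in repopulated, 53.6, 58.3 and 54.6 CPM in control and 48.6, 45.3, 31.4 and 43.5 CPM in wild-type libraries. The control libraries were above all others, and repopulated against control was not called (log2 -0.51 ± 0.17, edgeR adjusted p = 0.140). The Hnrnp members that pointed the other way were Hnrnph3 (log2 0.20 ± 0.14, adjusted p = 0.470, edgeR) and Hnrnpul2 (0.04 ± 0.18, adjusted p = 0.929).

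Between repopulated and wild-type microglia, 0 of 42 tested members were called by edgeR, against 4.18% of all tested genes (3.4% higher, 0.784% lower). Medians were 0.03 for Hnrnp (-0.04 without TMM factors), -0.07 for Srsf and 0.14 for Snrp members, against -0.02 for all genes. The unadjusted p was under 0.05 for 2 members, Hnrnpa1 and Snrpg, or 4.76%, against 15.1% of all genes. DESeq2 called 1, Hnrnpa1. Repopulated libraries lay above all wild-type libraries for 4 members, Hnrnpa1, Hnrnpab, Hnrnpm and Hnrnpul2, and below them for 0, against 9.13% and 6.82% of all genes. The log2 fold changes of Hnrnpm (0.23 ± 0.12, adjusted p = 0.395) and Hnrnpul2 (0.36 ± 0.17, adjusted p = 0.336) were not called. A missed threshold with 3 and 4 libraries does not show that levels were alike. For Srsf2, the log2 fold change was -0.00 ± 0.17.

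**Figure D4:**
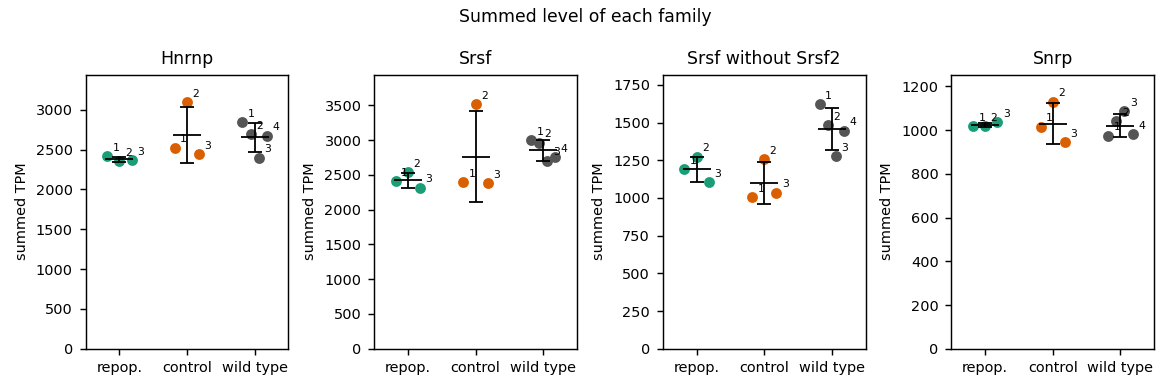
Summed TPM of the Hnrnp members, the Srsf members, the Srsf members without Srsf2 and the Snrp members in each library (points, with replicate numbers), with group mean and SD (bars; 3 repopulated, 3 control and 4 wild-type libraries); each axis starts at 0. Control library 2 is highest in 3 of the 4 panels, and without Srsf2 the wild-type Srsf sums are the highest of the 3 groups.

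On the TPM scale, which shares out each library's total, Hnrnp members summed to 2379 ± 30.5 in repopulated, 2685 ± 354 in control and 2651 ± 184 in wild-type libraries (mean ± SD of TPM, n = 3, 3 and 4). Srsf members summed to 2420.1 ± 114, 2762 ± 651 and 2854 ± 148 TPM in the same groups, and without Srsf2 to 1189 ± 85.5, 1099 ± 138 and 1456 ± 141. Snrp members summed to 1024 ± 10.1, 1030.3 ± 93.8 and 1021 ± 52.2 TPM. The sums of control and wild type overlapped in each family. TMM factors, which do not enter TPM, were 0.913 to 0.917 in control and 1.02 to 1.12 in wild-type libraries. Without TMM factors, an alternative chosen after seeing the data, the median of all genes moved to -0.27 in control against wild type. The family medians were then 0.11 for Hnrnp, -0.10 for Srsf and -0.11 for Snrp, all above that of all genes. In that fit 4 members rose (Hnrnpa1, Hnrnpab, Hnrnpul1, Snrpd2) and 4 fell (Snrpa, Snrpb, Srsf5, Srsf7), and 24.6% of all genes were called.

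Ratios between relatives do not depend on the scaling of libraries. For 11 pairs of related members, log2 CPM ratios were compared in the 3 comparisons with exact two-sided permutation tests, 33 in all. The log2 ratio of Hnrnpa1 over Hnrnpa2b1 was -1.75, -1.73 and -1.10 in repopulated, -0.55, -0.85 and -0.79 in control and -2.26, -1.68, -1.80 and -2.16 in wild-type libraries. Every control library was above every other library. The difference between control and wild type was 1.24 (exact permutation p = 0.0286, the smallest that 3 against 4 libraries allow; 0.275 after Benjamini-Hochberg adjustment), and that between repopulated and control was -0.80 (exact permutation p = 0.1, the smallest that 3 against 3 allow). The ratio of Hnrnpa1 over Hnrnpa3 gave 1.19 and -0.66 with the same exact permutation p-values. No ratio passed the adjustment over the 33 tests. To pass it, most of the tests of 3 against 4 libraries would have had to reach their smallest p. Missing it was thus nearly fixed by the group sizes and says little about the ratios. The ratio of Hnrnph2 over Hnrnph1 overlapped between control and wild type (difference 0.28, exact permutation p = 0.429).

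Outside the 3 families, 9 lists of splicing genes, drawn up with earlier results of these data known, held 179 genes, of which 171 were tested. In control against wild type 12 of them rose and 7 fell, or 11.1%, against 18.1% of all tested genes (10.1% higher, 8.04% lower). Their median log2 fold change was -0.01, against -0.06 for all genes. Of 22 alternatives, all kept the calls of Ybx1, Srrm2 and Smg5 described below. Mbnl2 was kept in 20, Acin1 in 18, Snrnp25 and Snrnp70 in 17 each, Lsm7 in 16, and Sf3b4 and Tia1 in 14 each. Cwc15 and Matr3 were kept in 11 each, Smndc1 and Dyrk1a in 10 each, Dhx15 in 6 and Sf3b5 in 5. Among 21 genes of the U2 particle and 3′ splice site recognition, Smndc1 (0.45 ± 0.13), Dhx15 (0.39 ± 0.12), a helicase that takes spliceosomes apart, and Sf3b5 (0.43 ± 0.14) rose, and Sf3b4 (-1.16 ± 0.34) fell, in log2 fold change. Of 13 genes with Snrnp symbols, which encode further proteins of U1, U5 and the minor spliceosome, Snrnp25 of the minor spliceosome rose (0.83 ± 0.21) and Snrnp70 of the U1 particle fell (-0.70 ± 0.17). Snrnp70 had 17.6, 18.4 and 15.3 CPM in repopulated, 11.2, 11.5 and 12.2 CPM in control and 20.2, 16.9, 17.2 and 21.3 CPM in wild-type libraries, with control libraries below all others.

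Of 9 genes of the Lsm ring, which binds U6, Lsm7 rose (0.62 ± 0.17). Of 32 genes of the catalytic steps and the exon junction complex, Cwc15 rose (0.55 ± 0.16) and Acin1 fell (-0.70 ± 0.19). Of 9 genes that phosphorylate or import SR proteins, the kinase gene Dyrk1a rose (0.56 ± 0.18). In control against wild type, edgeR and DESeq2 called 0 of 15 tri-snRNP genes and 0 of 11 Sm ring assembly genes, with 1 gene of each list at an unadjusted p under 0.05. Of 10 genes of nonsense-mediated decay, Smg5 fell (-1.10 ± 0.23). It had 17.4, 20.7 and 13.6 CPM in repopulated, 13.2, 9.27 and 11.1 CPM in control and 29.9, 17.5, 28.2 and 20.3 CPM in wild-type libraries.

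Among 51 tested genes for other RNA-binding splicing regulators, 5 rose and 3 fell in control against wild type. Ybx1 (log2 0.78 ± 0.14, edgeR adjusted p = 0.00111), which packages mRNA, had 92.9, 107 and 101 CPM in repopulated, 130.3, 156 and 122 CPM in control and 64.7, 86.7, 84.6 and 80.4 CPM in wild-type libraries. Every control library was above every other library. Srrm2 (log2 -0.93 ± 0.18, edgeR adjusted p = 0.00245), a scaffold of nuclear speckles, had 251, 374 and 245 CPM in repopulated, 210.4, 145 and 185 CPM in control and 394, 298, 312 and 369 CPM in wild-type libraries. Its control libraries were below all others. Matr3, a nuclear matrix protein that binds RNA, was among the others that rose (0.50 ± 0.15), and Mbnl2 (-0.49 ± 0.12) and Tia1 (-0.45 ± 0.12) fell. Of the 171 genes, 1 was called by edgeR in repopulated against control, Luc7l3, a U1-associated protein (log2 -1.12 ± 0.24, edgeR adjusted p = 0.0496). That is 0.585%, against 0.568% of all genes. The call was kept in 8 of 22 alternatives, with an adjusted p of up to 0.267 by edgeR. DESeq2 called 1 of the 171 genes higher and 13 lower, and 5.58% of all genes. Luc7l3 had 339, 293 and 353 CPM in repopulated, 499.7, 998 and 637 CPM in control and 511, 421, 711 and 458 CPM in wild-type libraries, and control library 2 was the highest of all. In repopulated against wild type 0 of 171 were called by edgeR and 2 by DESeq2 (Luc7l3 and Rbm5, both lower), against 4.18% and 6.24% of all genes. The unadjusted p was under 0.05 for 21 of them, or 12.3%, against 15.1% of all genes.

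The annotation of the tested members was described without a test. At least 1 transcript annotated as a target of nonsense-mediated decay was listed for 90% of Srsf, 50% of Hnrnp and 33.3% of Snrp members, against 29.2% of all tested genes, in the gene annotation. Transcripts with a retained intron were annotated for 80%, 70% and 75% of Srsf, Hnrnp and Snrp members, against 59% of all. Counts per gene do not separate these transcripts from coding ones, so no splicing change was measured. The median GC content of members' transcripts was 44.1%, against 49.3% for all tested genes. Across 12226 genes GC content and log2 fold change had a Spearman correlation of -0.263 in control against wild type and 0.436 in repopulated against control, given as a description since genes share libraries. With fold changes corrected for GC content and length, 7 members rose and 5 fell (Snrpa, Snrpb, Snrpb2, Srsf5, Srsf7) in control against wild type. Of all genes 18.7% were called. The medians were 0.30 for Hnrnp, -0.09 for Srsf and -0.12 for Snrp, against -0.10 for all genes. Under that correction Hnrnpa1, Hnrnpul1 and Hnrnpl fell in repopulated against control, where 0.632% of all genes were called. The medians were -0.15 for Hnrnp, -0.02 for Srsf and 0.17 for Snrp, against -0.01 for all genes.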

How the data were processed

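RNA-seq was run by the submitters on Smart-Seq libraries made from 1 ng of total RNA of sorted hippocampal microglia, in 10 libraries. Per the file headers, the deposited table gives an expected count, FPKM and TPM for each of 19782 genes in each library. HISAT, Bowtie2 and the build GRCm38.p6 are named, without roles, per the submitters' processing notes. For the quantifier and its strand setting nothing was given in the sources used here. Of the deposited expected counts that were not 0, 20.1% were not whole (tolerance 0.001), as estimated counts are, so they were rounded. The authors' TPM values were used as deposited for levels between genes, and the authors' FPKM values were not used.

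Genes were filtered with filterByExpr, scaled by TMM and tested with edgeR 4.0.16 (quasi-likelihood, all 3 groups in 1 model, robust dispersions, Benjamini-Hochberg adjustment over 12505 genes, threshold 0.05) in R 4.3.3. DESeq2 1.42.0, other scalings and filters, leaving out each library, a replicate block, a GC content and length correction (splines with 4 degrees of freedom) and terms added after seeing the data were alternatives. The biological coefficient of variation was 27.3%. The value after ± for a log2 fold change is an SE worked back from the edgeR test. It is the absolute log2 fold change divided by the square root of the F statistic. The tests were checked on simulated counts. Groups came from the sample labels, and comparisons with n under 10 outside the models used exact permutation tests. Replicates differed by more than counting noise (chi-square per degree of freedom 15.6 to 98.5), so none was merged.

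The members were taken by symbol, and the other gene lists were drawn up with earlier results of these data known. Genes named were the called members, the 3 highest and 3 lowest tested members of each family by mean TPM, members that failed the filter, and up to 5 called genes of each other list by smallest p. The other members described, such as Hnrnpl, Srsf10, Snrpa, Snrpg and Snrpd1, were named after their values were seen, to complete the account of each family. Same-numbered libraries did not deviate together (correlations of -0.105 to 0.0705), so the numbers were not taken as pairs. Promoter sequences are from RefSeq, GRCm38.p6, and 38 tested members matched.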

Additional observations from a re-analysis of the deposited data

Results flagged for a closer look

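Snrpd3, which encodes an Sm protein, had 2.96 CPM in wild-type library 3, while wild-type libraries 1, 2 and 4 held 1.5 to 1.62 CPM. The gap to the nearest of them was 0.917 of the range of the group, above Dixon's 95% critical value for 4 samples. Of 45 values examined, 1 was marked in this way, and chance marks about 1 in 20. Only the wild-type group was examined, because the others hold 3 libraries each, so no control or repopulated library could be marked. Repopulated libraries held 1.64 to 2.88 CPM and control libraries 1.61 to 2.40 CPM of the same gene, so the value lies close to levels seen elsewhere. The level is low, and Snrpd3 overlaps the pseudogene Gm35061 over 1535 bases.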

How the results depend on the processing

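Of the 8 members called higher in control against wild type, Hnrnpa1, Hnrnpab, Hnrnpul1 and Snrpd2 were called in all 22 refits, Hnrnpu in 20, Hnrnpa0 in 19, Srsf2 in 13 and Hnrnph2 in 12, and none of these changed sign. In repopulated against control, Hnrnpa1 was called in 16 and Hnrnpul1 in 14. The cause of the changes below was not tested.

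In control against wild type, library totals without TMM gave 4 members higher and 4 lower (Hnrnp 3, Srsf 2, Snrp 3). The GC and length correction gave 5 lower (Srsf 2, Snrp 4), and with the replicate block 4 lower (Srsf 2, Snrp 3). An adjusted p of 0.1 gave 14 higher and 2 lower (Srsf 2, Snrp 5). The filter of 5 CPM gave 1 lower (Snrp 2), DESeq2 gave Snrp 2, and fitting the compared groups alone gave Srsf 0. In the order given, these fits called 24.6%, 18.7%, 13.9%, 25%, 23.5%, 21.7% and 13.5% of all genes, against 18.1% in the main fit. In repopulated against control, DESeq2 gave 9 lower (Hnrnp 7, Srsf 1, Snrp 1), and the compared groups alone gave 6 (Hnrnp 5, Snrp 1). They called 5.58% and 5.26% of all genes, against 0.568% in the main fit. A term for Y-linked transcript status gave 0 lower (Hnrnp 0) and called 0.008% of all genes. In a fit to the 7 libraries with Y-linked transcripts, median log2 fold changes were -0.53 for Hnrnp, -0.41 for Srsf and -0.12 for Snrp. The median of all genes was 0.04. That fit holds control library 2 alone, assumed to vary like the other groups, so its medians speak for that library and not for the control group. These fits and the library totals were chosen after seeing the data. In repopulated against wild type, DESeq2, the GC and length correction and an adjusted p of 0.1 each gave 1 higher, an Hnrnp member. Of all genes they called 6.24%, 4.91% and 5.66%, against 4.18% in the main fit.

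With the replicate block, 0 members were lower in repopulated against control (Hnrnp 0), where 0.2% of all genes were called. Srsf gave 0 in control against wild type, where 6 members were still called higher and 11.7% of all genes were called. The replicate numbers do not pair the libraries. Without and with the block, the log2 fold changes were -0.99 and -1.003 for Hnrnpa1 and -0.69 and -0.69 for Hnrnpul1 in repopulated against control, and 0.58 and 0.51 for Srsf2 in control against wild type.

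Leaving out 1 library at a time gave, in control against wild type, 4 to 12 members higher and 0 to 1 lower, with Hnrnp 3 to 7, Srsf 0 to 1 and Snrp 1 to 5. The lowest count was without control library 2 (11.3% of all genes called) and the highest without wild-type library 3 (23.6% of all genes called). In repopulated against control it gave 0 to 3 lower, all of them Hnrnp members (0 to 3), with 0% to 2.66% of all genes called. The other counts stayed at 0.

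Over all genes, 55.6% of the calls in control against wild type were higher, against 26.4% without TMM and 47% with the GC and length correction; in repopulated against control 62% were higher, against 88.7% without TMM. All-gene calls were 2265, 71 and 523 by edgeR in control against wild type, repopulated against control and repopulated against wild type, and 2711, 698 and 780 by DESeq2. With 3 or 4 libraries a group, small differences in members at a few CPM, such as Snrpd3 and Snrpn, were not detectable.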
